A study of Mus musculus with 18 samples.

Results

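The guanylate-binding proteins (GBPs) are large GTPases that interferons induce, and 10 mouse GBP genes were examined here, *Gbp2*, *Gbp3*, *Gbp4*, *Gbp5*, *Gbp6*, *Gbp7*, *Gbp8*, *Gbp9*, *Gbp10* and *Gbp11*. They were the entries of the gene table whose symbol is 1 of these 10 names, and all 10 were found, 1 entry each, among 62197 genes in 18 bulk RNA-seq libraries. The libraries came from dendritic cells (DCs) grown for 10 days from the marrow of 6- to 8-week-old mice with a GM-CSF-containing supernatant, from cPLA_2_ WT controls or from cPLA_2_ KO mice, in which a floxed *Pla2g4a* (the gene of cytosolic phospholipase A2) is removed by Cre under the *Itgax* promoter, which is active in CD11c-positive cells. Of each genotype label, 3 libraries were from nonconfined cells taken at the end of culture, 3 from cells taken 4 h after confinement to 3 µm, and 3 from nonconfined cells given lipopolysaccharide (LPS, 100 ng/ml) for 30 min, washed and taken the next day. The design asks whether squeezing the cells, which deforms the nucleus, changes expression, whether cPLA_2_ is needed for that change, and how it compares with activation by LPS. Depth ran from 33027230 to 61300021 reads per library, with a median of 40950397.

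GBPs belong to the dynamin superfamily, and in macrophages and DCs their transcription is switched on by interferon gamma, in part through IRF1, and by type I interferon, which Toll-like receptor ligands such as LPS elicit. Several of them carry a C-terminal prenyl anchor. They assemble on the vacuoles of intracellular parasites and on bacteria in the cytosol, where they help to break membranes open and to bring bacterial LPS to caspase-11.

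The labels were checked against the data before the family was compared. *Pla2g4a* was at 697, 686 and 770.4 normalized counts in the nonconfined cPLA_2_ WT libraries and at 548, 542 and 533 in the nonconfined cPLA_2_ KO libraries, a normalized count being the reads of a gene divided by 1 size factor per library. In confined cells it was at 1369, 1430.3 and 1321 (cPLA_2_ WT) and 923, 871 and 919.5 (cPLA_2_ KO). The cPLA_2_ KO libraries were thus lower in both states and did not overlap the controls, although reads of the gene remained. Under LPS the order was the opposite, with 1005, 969 and 967 in the libraries labelled LPS cPLA_2_ WT and 1065, 1032 and 1028 in the libraries labelled LPS cPLA_2_ KO. The Y-linked *Ddx3y*, chosen after its values were seen, was at 3.05, 0 and 1.97 in nonconfined cPLA_2_ WT, 949, 981 and 874 in nonconfined cPLA_2_ KO, 0, 1.72 and 2.37 in confined cPLA_2_ WT and 1036, 920.2 and 948 in confined cPLA_2_ KO libraries. Outside LPS, reads of this gene were thus near 0 in cPLA_2_ WT and high in cPLA_2_ KO libraries, so that genotype and donor sex cannot be told apart. In the libraries labelled LPS cPLA_2_ WT *Ddx3y* was at 1271, 0 and 662 and in the libraries labelled LPS cPLA_2_ KO at 2.12, 1476 and 783, so each label held 1 library without, 1 with a high and 1 with an intermediate level. The genotype of the LPS libraries could not be settled from the data, and the counts of members called against them are also given with the 6 LPS libraries pooled. All 10 DC markers examined, among them *Itgax*, *H2-Ab1*, *Zbtb46* and *Flt3*, had reads in each of the 6 conditions, with *Cd74* the most abundant at 240559 normalized counts in nonconfined cPLA_2_ WT cells, while markers of granulocytes and macrophages were present too and are described below with their levels.

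On a scale that allows genes to be compared, normalized counts per kilobase of annotated exons, the level of *Gbp2* was the highest of the family in every condition, except that *Gbp5* was above it in confined cPLA_2_ WT cells where length was taken from the canonical transcript. Its level was 1184 ± 3.08 per kilobase (mean ± s.d., n = 3 here and below) in nonconfined cPLA_2_ WT cells, which was 51.8% of the sum over the family. *Gbp7*, *Gbp3* and *Gbp5* followed there with 311 ± 2.36, 232 ± 8.22 and 225 ± 7.51 per kilobase. The remaining members were lower in nonconfined cPLA_2_ WT cells, from *Gbp8* at 92.7 ± 1.06 down to *Gbp11* at 27.1 ± 4.01 and *Gbp10* at 2.20 ± 0.602 per kilobase. In nonconfined cPLA_2_ WT cells the 4 genes of the chromosome 3 cluster thus lay above the 6 of the chromosome 5 cluster on this scale. This did not hold in every condition, since *Gbp6* (937) was above *Gbp7* (872) under the LPS cPLA_2_ KO label. Lengths came from GENCODE, whereas reads were counted on FAST DB annotations, so places and shares are approximate. The spans differ for *Gbp8*, whose last base is chr5:105201427 in FAST DB and chr5:105287452 in GENCODE. Summed over the 10 members, the family stood at 2278, 2277 and 2294 per kilobase in the nonconfined cPLA_2_ WT libraries, 2049.7, 2162 and 2165 in the nonconfined cPLA_2_ KO, 7379, 7071 and 6912 in the confined cPLA_2_ WT and 987, 929 and 923 in the confined cPLA_2_ KO libraries. In the libraries labelled LPS cPLA_2_ WT the sum was 21333, 21197 and 20534 per kilobase, and in the libraries labelled LPS cPLA_2_ KO it was 20027, 21020.4 and 20328. Confined cPLA_2_ WT cells therefore lay between nonconfined and LPS-treated cells in the summed level, and confined cPLA_2_ KO cells lay below all others, with no overlap between these 4 states.

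*Gbp5* (GSMG0034826), a prenylated GBP known as a promoter of NLRP3 inflammasome assembly, changed most of the members on confinement in cPLA_2_ WT cells. It was at 1578, 1661 and 1681 normalized counts in the nonconfined and 13206, 13086 and 13189 in the confined cPLA_2_ WT libraries. In cPLA_2_ KO cells the values were 1248, 1415 and 1469 nonconfined and 611, 493 and 561 confined. Every confined cPLA_2_ WT library was above, and every confined cPLA_2_ KO library below, the nonconfined libraries of its genotype. The level of *Gbp5* per kilobase went from 225 ± 7.51 to 1805 ± 8.92 in cPLA_2_ WT cells, from the fourth to the second place in the family, and from 9.85% to 25.4% of its sum. Places and shares depend on the length used, and with that of the canonical transcript alone *Gbp5* went from the second to the first place and from 16.9% to 39.9% of the sum. On that scale the level of *Gbp5* in confined cPLA_2_ WT cells, 4136 per kilobase, was above that of *Gbp2*, 3698 per kilobase. With LPS *Gbp5* reached 31910.3, 30890.2 and 31099 under the cPLA_2_ WT label and 29718, 30904 and 30462 under the cPLA_2_ KO label, above all confined libraries.

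*Gbp2* (GSMG0034830), a prenylated member recruited to parasite vacuoles and cytosolic bacteria, was at 3033, 3023 and 3038 in nonconfined and 9985, 9311 and 8884 in confined cPLA_2_ WT libraries. The cPLA_2_ KO values were 2874, 2839 and 2999.8 nonconfined and 1437, 1335 and 1325 confined. Before confinement the genotypes were close, although they did not overlap, and the confined libraries lay on opposite sides of them. Its values with LPS were 31451, 31464 and 29709 (cPLA_2_ WT label) and 29340.5, 30749 and 29659.7 (cPLA_2_ KO label), and these overlapped. *Gbp3* (GSMG0034829), also on chromosome 3, was at 1026, 964 and 966 nonconfined and 2897, 2846 and 2870.0 confined in cPLA_2_ WT cells. In cPLA_2_ KO cells *Gbp3* was at 1035, 994 and 1047 nonconfined and 451, 428 and 431 confined. The nonconfined values of *Gbp3* overlapped between genotypes, and the confined values differed in direction as those of *Gbp2* did. *Gbp7* (GSMG0034828), linked to assembly of the phagocyte NADPH oxidase, had a narrower range, with 1854, 1851 and 1877 nonconfined and 2343, 2244 and 2399.8 confined in cPLA_2_ WT cells. In cPLA_2_ KO cells *Gbp7* was at 1237, 1792 and 1510.1 when nonconfined and 796, 740.0 and 759 when confined. Its nonconfined cPLA_2_ KO libraries were more spread than the cPLA_2_ WT ones and all lay below them.

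In the chromosome 5 cluster, *Gbp4* (GSMG0042337) was at 558, 545 and 626 nonconfined and 1933, 1899 and 1776 confined in cPLA_2_ WT libraries. In cPLA_2_ KO libraries it was at 436, 473 and 431 nonconfined and 156, 161 and 179.5 confined. No 2 of these 4 groups overlapped, and the confined cPLA_2_ WT and confined cPLA_2_ KO libraries were the extremes. *Gbp6* (GSMG0042338) was at 447, 521 and 527 nonconfined and 1424, 1455 and 1348 confined in cPLA_2_ WT cells, and at 397, 470.1 and 371 nonconfined and 174, 165 and 154 confined in cPLA_2_ KO cells. *Gbp9* (GSMG0042336) was at 765, 734 and 741 nonconfined and 1159.6, 1078 and 1003 confined in cPLA_2_ WT cells, and at 643, 846 and 669.6 nonconfined and 217, 235 and 266 confined in cPLA_2_ KO cells. For both genes the nonconfined groups overlapped between genotypes and the confined groups did not overlap with any other group.

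*Gbp8* (GSMG0042335) departed from this pattern. It was at 413, 418 and 423 in nonconfined cPLA_2_ WT, 200.03, 226 and 240.5 in confined cPLA_2_ WT, 488, 395 and 464 in nonconfined cPLA_2_ KO and 119, 180.2 and 102 in confined cPLA_2_ KO libraries. All confined libraries were below all nonconfined libraries, and so were all LPS libraries, which held 267, 294 and 289 under the cPLA_2_ WT label and 294, 241 and 289 under the cPLA_2_ KO label. *Gbp11* (GSMG0042340) was low throughout, with 81.5, 76.7 and 60.9 nonconfined and 53.1, 57.5 and 43.8 confined in cPLA_2_ WT cells, and 68.2, 89.4 and 59.2 nonconfined and 34.5, 28.8 and 24.6 confined in cPLA_2_ KO cells. Its confined cPLA_2_ KO libraries were below all nonconfined and confined cPLA_2_ WT libraries, but overlapped with 1 LPS library, at 33.6. *Gbp10* (GSMG0042339) was at 14.5, 15.3 and 8.84 in nonconfined cPLA_2_ WT, 15.5, 14.6 and 13.0 in confined cPLA_2_ WT, 14.1, 0.931 and 1.94 in nonconfined cPLA_2_ KO and 0 in all 3 confined cPLA_2_ KO libraries. Nonconfined cPLA_2_ KO replicate 1 was on the level of the cPLA_2_ WT libraries and the other 2 were far below it. The entry *Gbp2b*, not counted as a member, was at 15.2, 20.47 and 23.6 in nonconfined and 7.73, 24.0 and 19.0 in confined cPLA_2_ WT libraries, and at 18.02, 28.9 and 16.5 in nonconfined and 5.40, 3.20 and 2.73 in confined cPLA_2_ KO libraries, lowest in confined cPLA_2_ KO cells.

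**Figure D1:**
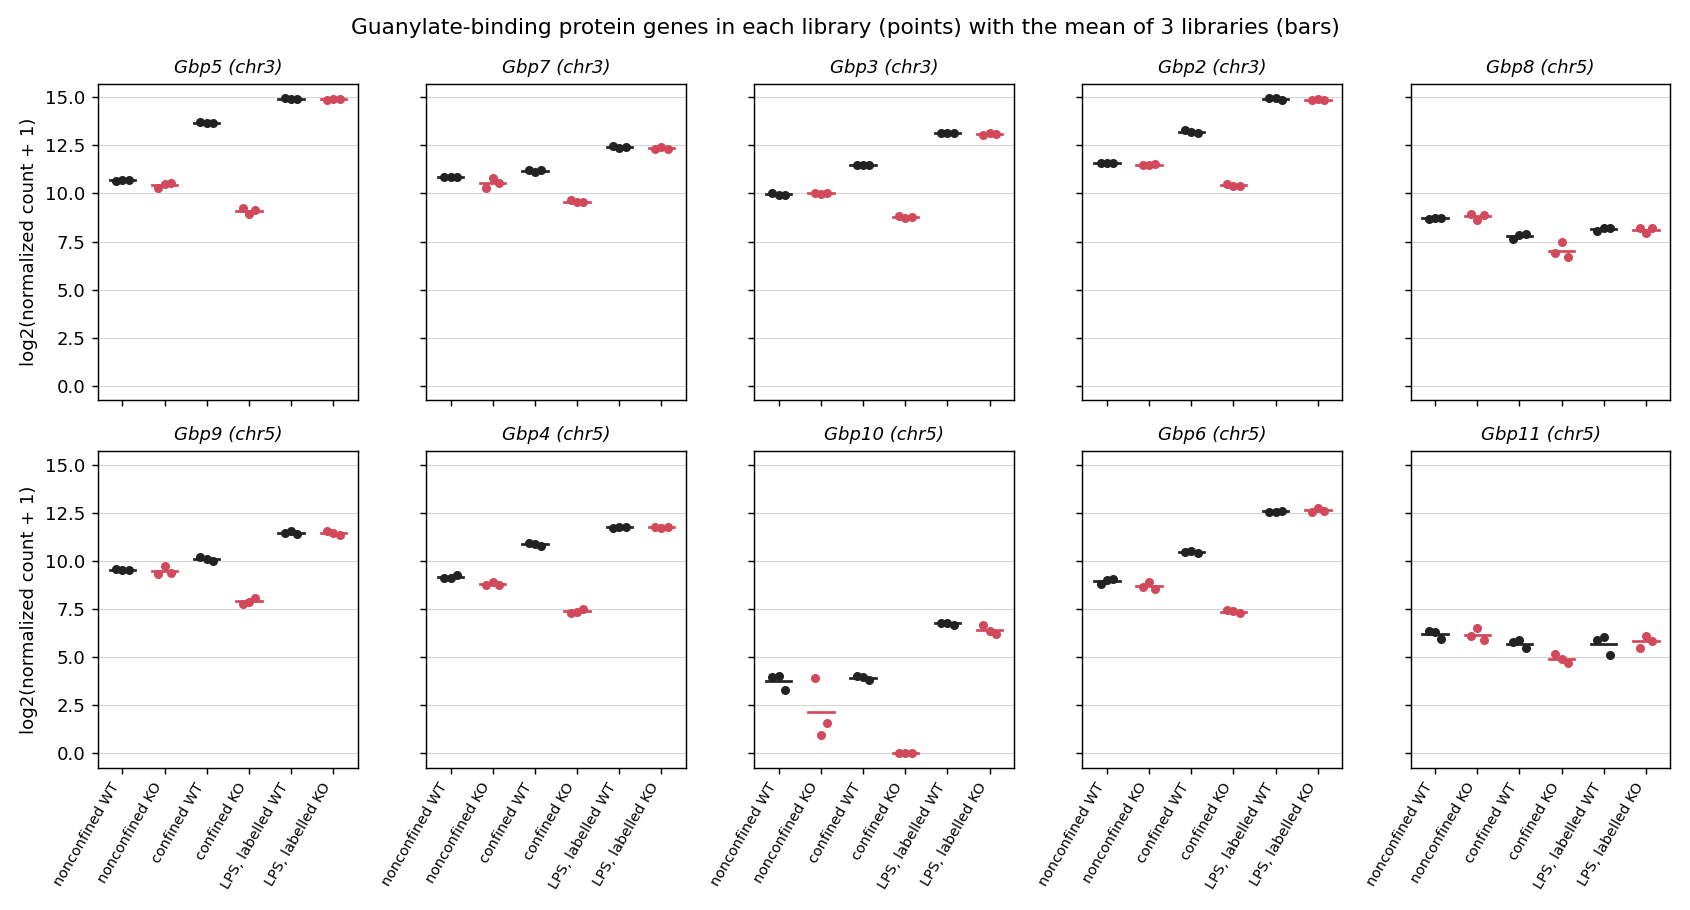
Log2(normalized count + 1) of the 10 guanylate-binding protein genes in each of the 18 libraries, by condition, with points for libraries and a bar for the mean of the 3. Confined cPLA_2_ WT libraries of *Gbp5* sit at 13086 to 13206 normalized counts and confined cPLA_2_ KO libraries at 493 to 611, and *Gbp10* is at 0 in the 3 confined cPLA_2_ KO libraries.

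Confinement of cPLA_2_ WT cells raised 5 of the 10 members and lowered 0, called at a limma p-value adjusted over all genes under 0.05 and a change of more than 1 on the log2 scale. Of all 17875 genes tested, 11.4% were called higher and 7.62% lower by the same rule. *Gbp5* had a log2 fold change of 3.00 ± 0.06 (SE; limma, adjusted p = 9.53e-20), an 8.02-fold higher level. The log2 fold change of *Gbp4* was 1.70 ± 0.07 (SE; limma, adjusted p = 4.92e-15). *Gbp2* was 3.09-fold higher, at 1.63 ± 0.05 (SE; limma, adjusted p = 1.64e-17) on the log2 scale. For *Gbp3* and *Gbp6* the log2 fold changes were 1.54 and 1.502 (limma, adjusted p = 3e-17 and 9.94e-13). Those 5 were higher in 3 of 3 libraries. Over the 10 members, every confined library was above every nonconfined one for 7 and below for 2. No share of all genes is given for these counts. By the adjusted p-value alone, without the limit on the fold change, 7 members passed as higher and 1 as lower, a rule that 56.6% of all genes passed in either direction. The members that it added were *Gbp9* at 0.53 (limma, adjusted p = 4.73e-05), *Gbp7* at 0.32 (limma, adjusted p = 0.0022) and *Gbp8* at -0.91 (limma, adjusted p = 2.49e-05) on the log2 scale. *Gbp11* at -0.50 (limma, adjusted p = 0.116) and *Gbp10* at 0.18 (limma, adjusted p = 0.803) did not pass, and the sign of *Gbp10* turned, to -0.0325, with library totals made equal and, to -0.054, without nonconfined cPLA_2_ WT replicate 3. *Gbp8* passed both limits, at -1.14, with equal library totals. Over the 10 members the median was 1.02, beside -0.01 over all genes tested. The p-values here and below measure only the spread between these libraries, which the study calls biological replicates without saying for each whether it came from an animal of its own.

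In cPLA_2_ KO cells confinement lowered 9 of the 10 members and raised 0, where 5.53% of all genes were called lower and 6.43% higher by the same rule. *Gbp5*, the member with the strongest increase in cPLA_2_ WT cells, had a log2 fold change of -1.31 ± 0.06 (SE; limma, adjusted p = 4.3e-13) and was lower in 3 of 3 libraries. *Gbp4* and *Gbp6* had -1.43 (limma, adjusted p = 3.21e-13) and -1.32 (limma, adjusted p = 2.47e-11). The log2 fold changes of *Gbp2* and *Gbp3* were -1.09 (limma, adjusted p = 6.41e-14) and -1.23 (limma, adjusted p = 6.86e-15). Larger decreases were those of *Gbp8*, -1.78 ± 0.15 (SE; limma, adjusted p = 3.93e-09), and *Gbp9*, -1.58 ± 0.09 (SE; limma, adjusted p = 1.12e-11) on the log2 scale. *Gbp11* was at -1.27 (limma, adjusted p = 0.000455). *Gbp10*, at 0 in the confined cPLA_2_ KO libraries, was at least 5.59-fold lower than in nonconfined cPLA_2_ KO cells, with 3 reads over the group of 3 libraries as the floor (counting error only), but this bound rests on nonconfined cPLA_2_ KO replicate 1 and is 1.42-fold without it. Its limma adjusted p was 0.00223, and the call was lost with a pseudocount of 5 in place of 1 and in a fit of the compared conditions alone, with adjusted p-values of 0.0338 on a fold change under the limit and 0.0769, in a range of 0.000215 to 0.0769 over all alternatives. *Gbp7*, at -0.97 ± 0.08 (SE; limma, adjusted p = 4.45e-09), missed the limit on the fold change and passed it, at -1.10, without nonconfined cPLA_2_ KO replicate 1, or, at -1.003, with equal library totals. By the adjusted p-value alone all 10 members were lower, against 46.3% of all genes in either direction. The median over the members was -1.31, also with *Gbp10* at its bound (-1.31), beside 0.01 over all genes tested.

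The difference between the 2 confinement effects, cPLA_2_ KO minus cPLA_2_ WT, was tested as the interaction of genotype and confinement. It was negative and called for 8 of the 10 members and positive for 0, with 6.56% of all genes called in the negative and 1.11% in the positive direction. *Gbp5* had a difference of -4.32 ± 0.09 (SE; limma, adjusted p = 3.53e-19) on the log2 scale. Next came *Gbp4* at -3.12 ± 0.10 (SE; limma, adjusted p = 1.66e-16). *Gbp6*, *Gbp3* and *Gbp2* differed by -2.82, -2.77 and -2.72 (limma, adjusted p = 2.64e-14, 2.44e-18 and 3.85e-18). Smaller differences were found for *Gbp9*, -2.11 (limma, adjusted p = 3.55e-11), and *Gbp7*, -1.29 (limma, adjusted p = 1.91e-08). For *Gbp10*, with its floor of 3 reads, the ratio of confined to nonconfined was at least 6.22-fold lower in cPLA_2_ KO than in cPLA_2_ WT cells (limma, adjusted p = 0.026), or 1.58-fold without nonconfined cPLA_2_ KO replicate 1. The call was lost without nonconfined cPLA_2_ WT replicate 3 (adjusted p = 0.0678), without nonconfined cPLA_2_ KO replicate 1 (0.0644), with a pseudocount of 5 (0.122), with no filter on low values (0.0639) and in a fit of the compared conditions alone (0.0899), in a range of 0.00079 to 0.122 over all alternatives. *Gbp8*, at -0.87 (limma, adjusted p = 0.00429), and *Gbp11*, at -0.77 (limma, adjusted p = 0.141), were not called. Without confined cPLA_2_ KO replicate 2, which held the highest *Gbp8* value of its group, *Gbp8* passed at -1.10. On the adjusted p-value alone 9 members passed, all negative, against 25.8% of genes. The median difference over the members was -2.52, or -2.68 with *Gbp10* at its bound, beside 0.05 over all genes tested.

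Confined cPLA_2_ KO cells set directly against confined cPLA_2_ WT cells were lower in every library for all 10 members, where 24.8% of all genes were lower and 25.5% higher in every library, and 8 were called lower and 0 higher. Of all genes 7.31% were called lower and 2.79% higher, and 39.4% passed on the adjusted p-value alone, as 10 of the members did. *Gbp5* had a log2 fold change of -4.57 ± 0.06 (SE; limma, adjusted p = 1.14e-22), the lowest apart from *Gbp10*, which has a bound alone and cannot be ranked. For *Gbp5* it is a 23.8-fold lower level. *Gbp4* and *Gbp6* followed with -3.49 (limma, adjusted p = 2.45e-20) and -3.09 (limma, adjusted p = 5.47e-18). *Gbp2*, *Gbp3*, *Gbp9* and *Gbp7* were at -2.78, -2.71, -2.17 and -1.60. *Gbp10* was at least 14.2-fold lower. *Gbp11* at -0.80 (limma, adjusted p = 0.0198) and *Gbp8* at -0.77 (limma, adjusted p = 0.000333) missed the limit on the fold change, and *Gbp8* reached -1.003 without confined cPLA_2_ KO replicate 2. The members' median was -2.75, with or without the bound, beside 0.04 over all genes tested. Its libraries are those of the comparisons above.

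Before confinement the genotypes were close. Nonconfined cPLA_2_ KO against nonconfined cPLA_2_ WT cells gave 0 members called by limma, edgeR or DESeq2, with 0.85% of all genes called higher and 0.302% lower by limma. Of the members 5 had an unadjusted p under 0.05, against 22.4% of all genes, and 4 were lower on the adjusted p-value alone, against 8.88% of all genes in either direction. These were *Gbp4* at -0.36 (limma, adjusted p = 0.00173), *Gbp7* at -0.31 (limma, adjusted p = 0.0211), *Gbp6* at -0.27 (limma, adjusted p = 0.0388) and *Gbp5* at -0.25 (limma, adjusted p = 0.015). Every cPLA_2_ KO library was below every cPLA_2_ WT library for 4 of the 10 members (*Gbp2*, *Gbp4*, *Gbp5* and *Gbp7*), and the groups overlapped for the other 6. Of all genes 13.8% were lower and 14.8% higher in every cPLA_2_ KO library. *Gbp10* was called, at -2.51 (limma, adjusted p = 0.00103, in a range of 0.00103 to 0.242 over all alternatives), without nonconfined cPLA_2_ KO replicate 1 and in no other leave-out, and had -1.62 (limma, adjusted p = 0.0619) with it. The median of the members was -0.16, beside 0.00 over all genes.

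LPS gave the highest levels of 8 members, and the share of all genes that were highest with LPS is not given. *Gbp6* was at 6044, 6051 and 6255 in the libraries labelled LPS cPLA_2_ WT and 6037, 6794 and 6259 in the libraries labelled LPS cPLA_2_ KO. For *Gbp3* the values were 8963, 8939 and 8896 under the cPLA_2_ WT and 8455, 9035 and 8775 under the cPLA_2_ KO label. Those of *Gbp4* were 3351, 3539.5 and 3451 (cPLA_2_ WT label) and 3524, 3412 and 3501 (cPLA_2_ KO label). Each of these lay above all nonconfined and all confined libraries. *Gbp9* was at 2777, 3022 and 2734 (cPLA_2_ WT label) and 2976, 2791 and 2577 (cPLA_2_ KO label). *Gbp7* held 5646, 5348 and 5512 (cPLA_2_ WT label) and 5061, 5474 and 5129 (cPLA_2_ KO label). *Gbp10* reached 109.8, 109.8 and 101 (cPLA_2_ WT label) and 101, 82.4 and 72.8 (cPLA_2_ KO label). These 3 were also above all other libraries, whereas *Gbp11*, at 59.0, 65.0 and 33.6 (cPLA_2_ WT label) and 43.5, 68.7 and 56.8 (cPLA_2_ KO label), stayed among its nonconfined and confined values. The 2 labels overlapped for all 10 members, and of all genes 4.87% were lower and 4.64% higher in every library of the cPLA_2_ KO label. Against nonconfined cPLA_2_ WT cells, the libraries labelled LPS cPLA_2_ WT had 8 members higher and 0 lower, with 15% of all genes called higher and 12.3% lower. Against nonconfined cPLA_2_ KO cells, the libraries labelled LPS cPLA_2_ KO also had 8 higher and 0 lower, with 15% and 12.9% of all genes. The log2 fold change of *Gbp5* was 4.25 ± 0.06 (SE; limma, adjusted p = 1.25e-22) for the cPLA_2_ WT label and 4.46 ± 0.06 (SE; limma, adjusted p = 5.56e-23) for the cPLA_2_ KO label. *Gbp6* had 3.62 (limma, adjusted p = 1.17e-19) and 3.95 (limma, adjusted p = 2.91e-20). The smallest of the 8 was that of *Gbp7*, 1.56 (limma, adjusted p = 3.89e-13) and 1.80 (limma, adjusted p = 3.29e-14). *Gbp8*, at -0.56 (limma, adjusted p = 0.00286) and -0.71 (limma, adjusted p = 0.000342), passed the adjusted p-value alone in the other direction, a rule met by 62.8% and 63.5% of all genes, and *Gbp11*, at -0.51 (limma, adjusted p = 0.0961) and -0.36 (limma, adjusted p = 0.245), did not. With equal library totals, *Gbp8* passed as lower under both labels (-1.07 and -1.18) and *Gbp11* under the cPLA_2_ WT label (-1.02). Member medians were 2.79 and 3.03, beside 0.03 and 0.02 over all genes. With the 6 LPS libraries pooled over their labels, 8 members were higher and 0 lower against either nonconfined group, and *Gbp5* was at 4.23 and 4.49. The shares of all genes above belong to the fits by label, and none is given for the pooled fit.

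Between the libraries labelled LPS cPLA_2_ KO and those labelled LPS cPLA_2_ WT, 0 members and 0% of all genes were called, by limma, edgeR and DESeq2 alike. Of the members 0 had an unadjusted limma p under 0.05, where 890 of all 17875 genes (4.98%) had. *Gbp10* had the widest separation, a log2 fold change of -0.33 ± 0.53 (SE; limma, adjusted p = 1), and *Gbp5* had -0.04 ± 0.06 (SE; limma, adjusted p = 1). Given the mixed *Ddx3y* values of these libraries, this comparison cannot be read as one of genotypes.

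Confined cPLA_2_ WT cells were lower than the libraries labelled LPS cPLA_2_ WT for 7 members and higher for 0, with 7.51% of all genes called lower and 6.32% higher. On the adjusted p-value alone 8 members and 48.9% of all genes passed. *Gbp6* was at -2.12 (limma, adjusted p = 7.19e-15), *Gbp2* at -1.72 (limma, adjusted p = 3.22e-17) and *Gbp5* at -1.25 (limma, adjusted p = 6.44e-13) on the log2 scale. *Gbp4* had the least negative value of the 5 members that confinement raised, -0.88 (limma, adjusted p = 5.04e-10), and was not called. *Gbp10* had -2.81 (limma, adjusted p = 0.000144), and *Gbp11* 0.02 (limma, adjusted p = 0.963). With equal library totals, *Gbp5* (-0.96) and *Gbp7* (-0.95) missed the limit on the fold change. Confined cPLA_2_ KO cells were lower than the libraries labelled LPS cPLA_2_ KO for 9 members and higher for 0, with 12.6% of all genes called lower and 10.4% higher; on the adjusted p-value alone 10 members and 58.7% of genes passed. *Gbp5* was at -5.78 (limma, adjusted p = 5.94e-25) and *Gbp6* at -5.27 (limma, adjusted p = 1.79e-22). *Gbp10* was at least 84.2-fold lower. *Gbp8*, at -1.07 (limma, adjusted p = 2.96e-06), lost its call without confined cPLA_2_ KO replicate 3 (-0.90) or with equal library totals (-0.63). *Gbp11*, at -0.91 (limma, adjusted p = 0.00535), gained one without confined cPLA_2_ KO replicate 1 (-1.03) or without the LPS cPLA_2_ KO label's replicate 1 (-1.08). Medians were -1.32 and -4.35, beside -0.02 and 0.02 over all genes. With the LPS libraries pooled, the counts were again 7 and 9, on the adjusted p-value alone 9 (*Gbp8* added, at -0.33, limma, adjusted p = 0.0358) and 10, and *Gbp5* was at -1.23 and -5.80. For these pooled counts no share of all genes is given.

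The 10 genes lie in 2 clusters of genome build GRCm39. Chromosome 3 holds *Gbp5* (chr3:142199738-142228105), *Gbp7* (chr3:142236097-142255912), *Gbp3* (chr3:142265805-142278974) and *Gbp2* (chr3:142326403-142343767), all on the plus strand within 144030 bases, and *Gbp2b* (chr3:142300607-142324937) between the last 2. Chromosome 5 holds *Gbp8* (chr5:105162019-105201427), *Gbp9* (chr5:105224332-105258158), *Gbp4* (chr5:105263630-105287452), *Gbp10* (chr5:105363565-105387399), *Gbp6* (chr5:105418570-105441565) and *Gbp11* (chr5:105470892-105494342), all on the minus strand within 332324 bases. Members raised by confinement in cPLA_2_ WT cells were found in both clusters, 3 of 4 on chromosome 3 and 2 of 6 on chromosome 5. Neighbours differed, since *Gbp7* lies between *Gbp5* and *Gbp3* and, with all libraries kept, had the smallest change of the chromosome 3 genes in each of the confinement comparisons. Without nonconfined cPLA_2_ KO replicate 1, *Gbp7* was at -1.104 on confinement of cPLA_2_ KO cells. Leaving out 1 library at a time gave -1.126 to -1.065 for *Gbp2* there. *Gbp9* and *Gbp4*, with their genes next to each other, had log2 fold changes of 0.53 and 1.70 on confinement of cPLA_2_ WT cells.

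**Figure D2:**
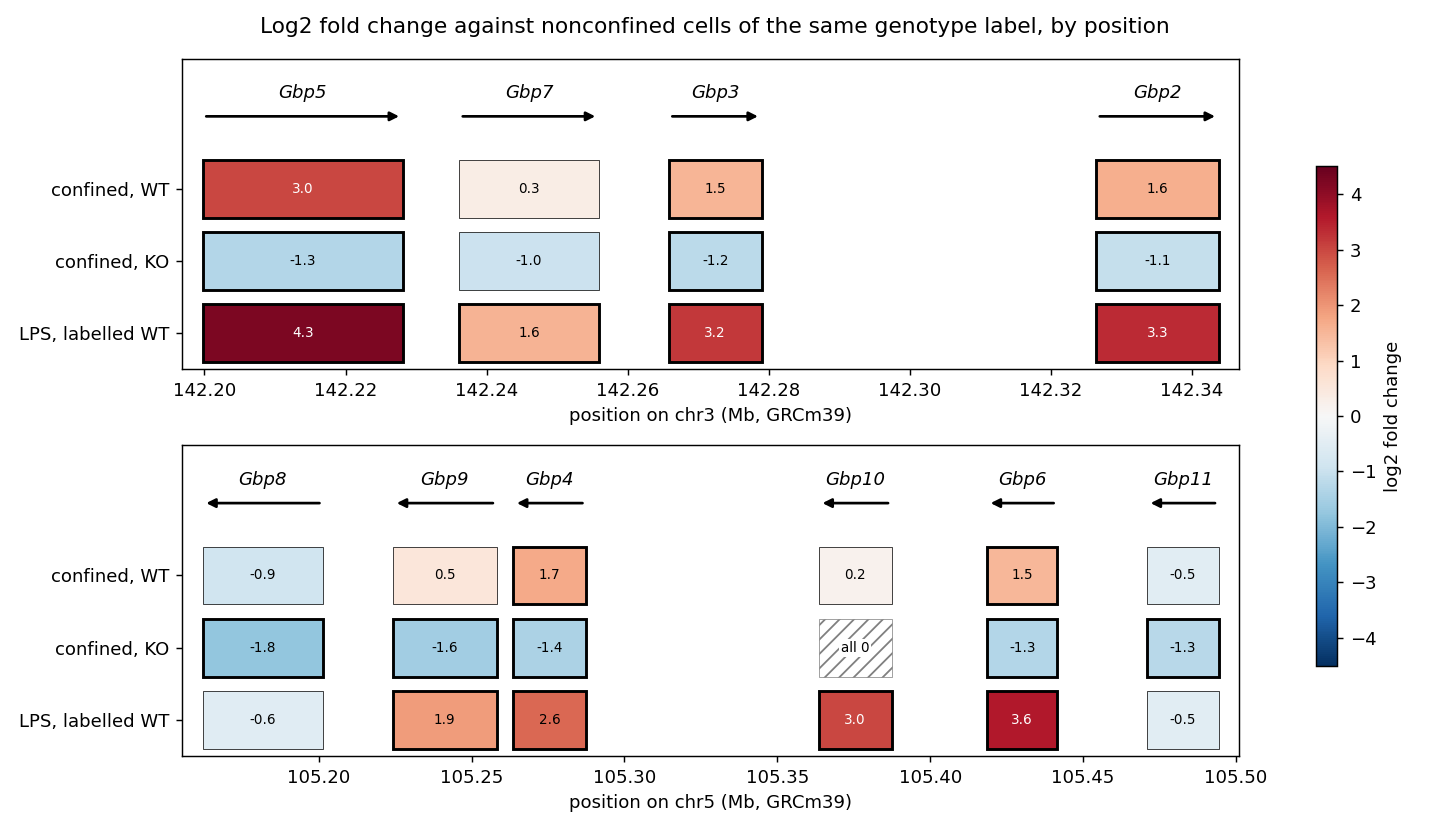
Positions of the 10 genes on chromosomes 3 and 5 (GRCm39, megabases, to scale), with boxes coloured and numbered by the log2 fold change against nonconfined cells of the same genotype label, and a thick edge where the change was called. On confinement *Gbp5* is at 3.00 in cPLA_2_ WT and -1.31 in cPLA_2_ KO cells, the hatched box marks *Gbp10* with 0 reads in confined cPLA_2_ KO cells, and *Gbp10* changes sign in cPLA_2_ WT cells when library totals are made equal.

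Members of the chromosome 5 cluster are close in sequence, which limits what reads can assign to each. The coding sequences of *Gbp6* and *Gbp10* were 98.36% identical, and those of *Gbp4* and *Gbp11* 90.67%. *Gbp8* was less close to the others of its cluster, from 76.48% (*Gbp9*) to 79.44% (*Gbp11*). On chromosome 3, *Gbp3* and *Gbp7* shared 76.03% and *Gbp2* and *Gbp5* 66.72%. Of the windows of 100 bases in the *Gbp10* transcript, 64.8% occurred unchanged in another member, against 62.0% for *Gbp6*, 5.996% for *Gbp8*, 5.13% for *Gbp11* and 0% for *Gbp2* and *Gbp5*. How reads that match 2 members were counted is not stated, so the levels of *Gbp10* and *Gbp6* are uncertain one by one. Summed, *Gbp6* and *Gbp10* changed by 1.48 on the log2 scale when cPLA_2_ WT cells were confined and by -1.34 when cPLA_2_ KO cells were, with a difference of -2.82, close to those of *Gbp6*. The sum of *Gbp4* and *Gbp11* had 1.56, -1.41 and -2.97. The sums were chosen after the data were seen.

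Promoters are shown for the 4 members with an entry, which are those of chromosome 3, where *Gbp5*, *Gbp3* and *Gbp2* changed in the same direction in each genotype. Sequences of 300 bases, 250 before to 50 from the start, were found for 4 of the 10 members in RefSeq (GRCm38.p6), and each matched the plus strand of GRCm39 exactly once, at the coordinates given. The *Gbp5* window lies inside the gene span given above, whose first base is chr3:142199738, so its RefSeq start differs from that base. Searched on both strands were a form of the interferon-stimulated response element, TTTC repeated after any 2 bases (GAAA repeated in the same way on the other strand), and a form of the interferon gamma-activated site, TTCNNNGAA, each printed in capitals. The first was present in 1131 of 32851 promoters (3.443%), the second in 2726 (8.298%) and both in 149 (0.4536%). All 4 members held the first, and *Gbp5* and *Gbp7* also held the second, at 2 places each.
Gbp5, chr3:142202445-142202744: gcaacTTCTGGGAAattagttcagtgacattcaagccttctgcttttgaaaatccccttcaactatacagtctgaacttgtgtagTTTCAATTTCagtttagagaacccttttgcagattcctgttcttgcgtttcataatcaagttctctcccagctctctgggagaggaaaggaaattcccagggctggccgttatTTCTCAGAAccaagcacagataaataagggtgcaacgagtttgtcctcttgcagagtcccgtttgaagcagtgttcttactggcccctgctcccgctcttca
Gbp7, chr3:142235847-142236146: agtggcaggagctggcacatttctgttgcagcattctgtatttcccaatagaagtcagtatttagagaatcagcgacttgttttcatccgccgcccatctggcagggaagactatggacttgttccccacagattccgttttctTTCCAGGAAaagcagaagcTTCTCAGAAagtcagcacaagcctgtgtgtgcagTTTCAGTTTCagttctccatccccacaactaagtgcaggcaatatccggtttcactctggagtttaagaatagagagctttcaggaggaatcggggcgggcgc
Gbp3, chr3:142265555-142265854: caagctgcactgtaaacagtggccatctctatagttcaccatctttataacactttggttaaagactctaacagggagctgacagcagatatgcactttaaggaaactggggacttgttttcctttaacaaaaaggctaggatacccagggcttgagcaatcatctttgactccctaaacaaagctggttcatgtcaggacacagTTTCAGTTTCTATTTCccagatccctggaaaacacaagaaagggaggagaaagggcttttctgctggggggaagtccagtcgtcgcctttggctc
Gbp2, chr3:142326174-142326473: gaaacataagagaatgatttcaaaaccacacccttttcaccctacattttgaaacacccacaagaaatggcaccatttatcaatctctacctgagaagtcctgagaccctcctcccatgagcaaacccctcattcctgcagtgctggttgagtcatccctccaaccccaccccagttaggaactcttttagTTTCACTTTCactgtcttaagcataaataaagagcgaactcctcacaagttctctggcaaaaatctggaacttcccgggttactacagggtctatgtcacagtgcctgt
For *Gbp3*, with overlapping matches of the first type printed as 1 stretch of capitals, RefSeq gives another start as well, and no match of either type lay in the 300 bases around it. A match describes letters in these windows and no binding.

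Interferon signalling genes were examined beside the family, with all-gene medians of -0.01 for confinement of cPLA_2_ WT cells, 0.01 for cPLA_2_ KO cells and 0.05 for the interaction. Of 25 listed, from receptors to inhibitors, 23 were tested. By the rule used for the members 10 were called higher and 1 lower on confinement of cPLA_2_ WT cells, with a median of 0.98. The shares of all genes there were 11.4% higher and 7.62% lower. In cPLA_2_ KO cells 1 was higher and 5 lower (median -0.22), against 6.43% and 5.53% of all genes. The interaction was called for 13, all negative (median -1.27), against 6.56% of all genes negative and 1.11% positive. *Ifnb1*, the gene of interferon beta, was at 3.05, 5.12 and 5.90 in nonconfined and 105, 92.6 and 103 in confined cPLA_2_ WT libraries. In cPLA_2_ KO cells it was at 0, 1.86 and 3.88 nonconfined and 11.9, 6.398 and 6.38 confined. Each confined group was above its nonconfined group, and the confined cPLA_2_ KO libraries lay far below the confined cPLA_2_ WT libraries. *Ifnb1* changed by 4.19 ± 0.42 (SE; limma, adjusted p = 2.3e-08) in cPLA_2_ WT cells and by 1.88 ± 0.42 (SE; limma, adjusted p = 0.000904) in cPLA_2_ KO cells on the log2 scale. Its nonconfined and confined cPLA_2_ KO libraries held at most 11.9 normalized counts, so the size of that change depends on the pseudocount. A part of *Ifnb1* in the family's changes was not tested. *Il27*, a cytokine gene, rose by 3.70 (limma, adjusted p = 6.58e-16) in cPLA_2_ WT cells, with an interaction of -3.28 (limma, adjusted p = 6.54e-12). *Usp18*, an inhibitor of the type I interferon receptor, had an interaction of -3.04 (limma, adjusted p = 1.35e-19). *Irf1* was at 1.07 (limma, adjusted p = 5.25e-10) on confinement in cPLA_2_ WT and -0.50 (limma, adjusted p = 4.56e-05) in cPLA_2_ KO cells. *Ciita*, the MHC class II transactivator, was the 1 gene lower in cPLA_2_ WT cells, at -1.03 (limma, adjusted p = 8.68e-11). *Ifng* had 0 reads in all nonconfined and confined libraries and *Ifna4* had 0 in all 18 but LPS cPLA_2_ KO replicates 1 and 2 (8.49 and 2.29), and neither was tested. LPS (cPLA_2_ WT label) raised 15 of the 23 and lowered 0, with the LPS libraries pooled 15 and 0. Under the cPLA_2_ WT label 15% of all genes were called higher and 12.3% lower.

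Immunity-related GTPases, which work with GBPs at parasite vacuoles, were listed with ubiquitin ligases and autophagy genes of the same place. Of 19 genes 18 were in the table and 17 were tested. On confinement 7 were called higher and 0 lower in cPLA_2_ WT cells (median 0.85), against 1 and 10 in cPLA_2_ KO cells (median -1.22). For every list in this paragraph, the all-gene shares by this rule were 11.4% higher and 7.62% lower in cPLA_2_ WT cells. They were 6.43% and 5.53% in cPLA_2_ KO cells, and 1.11% positive and 6.56% negative in the interaction. The interaction was called for 10, all negative (median -2.28). *Tgtp1* had 2.40 (limma, adjusted p = 7.68e-12) in cPLA_2_ WT cells and an interaction of -4.53 (limma, adjusted p = 1.84e-13), and *Tgtp2* an interaction of -3.62 (limma, adjusted p = 1.51e-17). *Sqstm1*, the gene of the autophagy receptor p62, rose in both genotypes, by 2.56 and 1.91, and the autophagy genes *Atg3*, *Atg5*, *Atg7*, *Atg16l1* and *Gabarapl2* were not called in either. Of 11 inflammasome genes, 4 were called higher in cPLA_2_ WT cells and 2 in cPLA_2_ KO cells and 0 were called lower in either, and 3 had a negative interaction (medians 0.81, 0.24 and -0.55). On the adjusted p-value alone 2 were lower in cPLA_2_ WT and 4 in cPLA_2_ KO cells, and 8 and 5 were higher, where 28.4% and 23.4% of all genes were lower and 28.2% and 22.8% higher. Lower in both were *Gsdmd* and *Pycard*, the gene of the adaptor ASC, with *Pycard* at -0.99 (limma, adjusted p = 3.22e-09) in cPLA_2_ WT and -0.66 (limma, adjusted p = 2.55e-06) in cPLA_2_ KO cells. *Casp4*, the gene of caspase-11, to which GBPs bring LPS, was at 679.7, 646 and 616 in nonconfined and 4691, 4724 and 4912 in confined cPLA_2_ WT libraries. In cPLA_2_ KO libraries it was at 861, 761 and 779 and 1175, 1255 and 1275, higher when confined in both genotypes but less so in cPLA_2_ KO cells, by 2.88 (limma, adjusted p = 5.05e-18) and 0.63 (limma, adjusted p = 8.47e-07), with an interaction of -2.26 (limma, adjusted p = 4.14e-13). *Il1b* rose by 8.45 and 3.91. The prenylation list, of genes for attaching the anchor and for later processing, gave 0 of 6 called in cPLA_2_ WT cells, cPLA_2_ KO cells or the interaction. Its medians were -0.05, 0.05 and 0.08, and 3, 2 and 2 had an unadjusted limma p under 0.05, against 60.5%, 52.1% and 35.9% of all genes. By edgeR and by DESeq2 0 of the 6 were called in these 3 comparisons. *Mx1* and *Mx2*, antiviral members of the dynamin superfamily, were both raised in cPLA_2_ WT cells (1.46 and 2.98), and their interactions were -3.14 (limma, adjusted p = 7.33e-18) and -3.95 (limma, adjusted p = 1.06e-14). LPS (cPLA_2_ WT label) raised 12 of the 17 vacuole genes, 6 of the 11 inflammasome genes, both *Mx* genes and 0 of the prenylation list. With the LPS libraries pooled the counts were 12, 6, 2 and 0. With LPS under the cPLA_2_ WT label, 15% of all genes were called higher and 12.3% lower. Lowered was 1 inflammasome gene, *Pycard*, at -1.62 (limma, adjusted p = 5.2e-13), and 1 with the libraries pooled, and 0 of the other 3 lists. *Gbp2b* was not raised by confinement in cPLA_2_ WT cells, -0.33 (limma, adjusted p = 0.499), but was lower in cPLA_2_ KO cells, -2.21 (limma, adjusted p = 7.5e-05), and higher with LPS (cPLA_2_ WT label), 1.77 (limma, adjusted p = 0.000412).

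Markers of DCs and of other cells differed in the same comparisons. DC markers (10, most abundant *Cd74* outside LPS and *Ccl22* with LPS) summed to 510486, 483006 and 489511 normalized counts in nonconfined cPLA_2_ WT, 583257, 550457 and 567747 in nonconfined cPLA_2_ KO, 479200, 446101 and 459475 in confined cPLA_2_ WT and 395290, 379669 and 393450 in confined cPLA_2_ KO libraries. On confinement 1 was called higher and 2 lower in cPLA_2_ WT cells, and 1 higher and 3 lower in cPLA_2_ KO cells. The all-gene shares were 11.4% higher and 7.62% lower in cPLA_2_ WT cells, and 6.43% and 5.53% in cPLA_2_ KO cells. They apply to the confinement counts of every marker list below. The sums with LPS were 1472260, 1399840 and 1446780 under the cPLA_2_ WT and 1448140, 1486770 and 1474310 under the cPLA_2_ KO label. These higher sums were mostly *Ccl22* and *Ccl17*. *Ccl22* was at 56584, 54570 and 55835 in nonconfined cPLA_2_ WT libraries and 725970, 731194 and 751870 under the LPS cPLA_2_ WT label. *Ccl17* was at 18080, 17903 and 17654 and at 142916, 157759 and 148347 in the same libraries. Neutrophil markers (9, most abundant *S100a9*) summed to 240231, 245234 and 243512 normalized counts in nonconfined cPLA_2_ WT, 370704, 333248 and 358600 in nonconfined cPLA_2_ KO, 154413, 147158 and 144932 in confined cPLA_2_ WT and 333918, 346847 and 330840 in confined cPLA_2_ KO libraries. Confined cPLA_2_ KO libraries thus held more than confined cPLA_2_ WT libraries, and 7 of the 9 were called higher there (2.79% of all genes). On confinement 5 of the 9 were called lower in cPLA_2_ WT and 1 in cPLA_2_ KO cells, and 0 higher (7.62% and 5.53% of all genes lower). Eosinophil markers (6, most abundant *Prg2*) summed to 30484, 30286 and 30259 in nonconfined cPLA_2_ WT, 74361, 69164 and 71123 in nonconfined cPLA_2_ KO, 8519.9, 8095 and 7998 in confined cPLA_2_ WT and 19766, 19339 and 20344 in confined cPLA_2_ KO libraries. They were higher in cPLA_2_ KO libraries in both states, with 5 of 6 called higher in nonconfined (0.85% of all genes) and 4 higher and 1 lower in confined cells (2.79% and 7.31%). On confinement 4 were called lower and 1 higher in cPLA_2_ WT cells, and 4 lower and 0 higher in cPLA_2_ KO cells. Under LPS the eosinophil sums were 43274, 25238 and 34349 under the cPLA_2_ WT and 25084, 43088 and 35055 under the cPLA_2_ KO label, so that each label held a high, a low and an intermediate library, as for *Ddx3y*. Macrophage markers (8, most abundant *Cd14* in confined cPLA_2_ WT and *Csf1r* in confined cPLA_2_ KO cells) summed to 66689, 63666 and 64622 in nonconfined cPLA_2_ WT, 68335, 71794 and 69631 in nonconfined cPLA_2_ KO, 200717, 191575 and 192633 in confined cPLA_2_ WT and 89699, 82317 and 87335 in confined cPLA_2_ KO libraries. The higher sums of confined cells were mostly *Cd14*, and the other 7 summed to 64743, 61857 and 62679.6 in nonconfined cPLA_2_ WT, 66347, 69937 and 67529 in nonconfined cPLA_2_ KO, 64601, 62344 and 63449 in confined cPLA_2_ WT and 73009, 66227 and 70826 in confined cPLA_2_ KO libraries. Of the 8, 1 was called higher and 1 lower on confinement of cPLA_2_ WT cells, and 1 higher and 2 lower in cPLA_2_ KO cells. Mast cell and basophil markers (6, most abundant *Cpa3*, with *Mcpt4* at 0 in 5 of the 6 conditions) summed to 6125, 6341 and 6214 in nonconfined cPLA_2_ WT, 9678, 9285 and 9168 in nonconfined cPLA_2_ KO, 2643, 2465 and 2493 in confined cPLA_2_ WT and 4119, 4034 and 4146 in confined cPLA_2_ KO libraries. T and NK cell markers (7 of 8 in the table, most abundant *Cd3g*, with *Ncr1* at 0 in both confined conditions) summed to 2603, 2629.8 and 2604 in nonconfined cPLA_2_ WT, 3434, 3074 and 3322 in nonconfined cPLA_2_ KO, 885, 918 and 782 in confined cPLA_2_ WT and 1165, 1340.4 and 1202 in confined cPLA_2_ KO libraries, and B cell markers (4) stayed at or below 90.5 in every library. Of the 5 mast cell and basophil markers tested, 4 were called lower on confinement in cPLA_2_ WT and 4 in cPLA_2_ KO cells, as were 4 and 4 of 5 T and NK cell markers. With LPS the neutrophil sums were 309436, 291364 and 293045 under the cPLA_2_ WT and 277910, 313058 and 295262 under the cPLA_2_ KO label, and the macrophage sums 144147, 149139 and 141268 and 144387, 139454 and 143500. Mast cell and basophil sums with LPS were 6103, 5948 and 5982 and 5829.7, 6270.2 and 6429, and T and NK cell sums 638, 621 and 587 and 524, 709 and 681. The part of these cells in the family's changes was not tested. The study's methods state that nonadherent granulocytes are removed in culture, that macrophages stick to the plate, and that semiadherent cells were recovered. In bulk samples a smaller share of expressing cells and less RNA per cell cannot be told apart.

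Within the family, 8 members had a correlation above 0.94 with the others and 2 had one below 0.3. The Pearson correlation of a member's log2 normalized counts with the mean of the other members over the 18 libraries is given as a description, since the libraries fall into 6 conditions. It was 0.9872 for *Gbp9*, 0.9859 for *Gbp7* and 0.9852 for *Gbp6*. The correlation was 0.9809 for *Gbp2*, 0.9848 for *Gbp3*, 0.9838 for *Gbp4*, 0.9597 for *Gbp5* and 0.9464 for *Gbp10*, but 0.2825 for *Gbp11* and 0.2412 for *Gbp8*. Outside the family and among 10546 genes, patterns among the most like that of the members' mean were those of *Ccl5* and *Trim30a* (r = 0.9977 each, n = 18 libraries), *Trim30d* (0.9969), *Dtx3l* and *Irgm1* (0.9968 each), *Xaf1* (0.9965), *Slfn5* (0.996), and *Ddx58* and *Ifi47* (0.9946 each), the last an entry that also carries the symbol *Olfr56*.

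In the order of conditions, 8 members (*Gbp2* to *Gbp7*, *Gbp9* and *Gbp10*) were highest with LPS under either label, then in confined cPLA_2_ WT, then in nonconfined cells, and lowest in confined cPLA_2_ KO cells. The share of all genes with this order is not given, so the order describes the members alone. For these 8 the 2 LPS labels overlapped and could not be ordered, and confined cPLA_2_ WT lay apart from both neighbours except for *Gbp10*, whose confined cPLA_2_ WT and nonconfined cPLA_2_ WT libraries overlapped. The nonconfined cPLA_2_ WT and cPLA_2_ KO libraries overlapped for *Gbp3*, *Gbp6*, *Gbp9* and *Gbp10* and were apart for *Gbp2*, *Gbp4*, *Gbp5* and *Gbp7*. *Gbp8* was highest in nonconfined cells, at 449 ± 48.5 in cPLA_2_ KO and 418 ± 4.78 in cPLA_2_ WT, followed by the LPS labels, confined cPLA_2_ WT and confined cPLA_2_ KO cells. *Gbp11* had overlapping libraries from each condition to the next except for confined cPLA_2_ KO cells, at 29.3 ± 4.98, which lay below confined cPLA_2_ WT cells and overlapped with the libraries labelled LPS cPLA_2_ WT.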

How the data were processed

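Per the deposited table, the authors' values are a signal, gene counts divided by 1 size factor per library with DESeq2, from stranded polyA libraries aligned with STAR 2.7.5a to mm39 (GRCm39), counted with featureCounts 1.5.0 on Mouse FAST DB annotations and processed in R 3.5.3. The labels name a pair of library kits without saying which library was made with which, and their protocol text names LPS for all samples, so the treatment entry of each library was followed. Whole reads were recovered (100% of values whole within 0.001), and 0 sample columns were left unmapped. Genes that reached 10 normalized counts in 3 or more libraries (17875, all 10 members included) were fitted as log2(value + 1) with limma 3.58.1 in R 4.3.3, 1 model over the 18 libraries with a mean per condition, tested genome-wide with Benjamini-Hochberg adjustment over all genes tested. Alternatives were pseudocounts of 0.5 and 5, other filters, same-total and TMM scaling, edgeR 4.0.16, DESeq2 1.42.0, a fit of the compared conditions, a replicate block, other thresholds, pooled LPS libraries, summed near-identical members and leaving out each library. Named genes were the members, *Pla2g4a*, in each list the 2 most increased and the 2 most decreased of those called in cPLA_2_ WT confinement and in the interaction, others from a list's counts, and genes among the 10 most like the family. Members and lists were chosen with earlier results of these data known.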

Additional observations from a re-analysis of the deposited data

Results flagged for a closer look

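The effect of confinement differed between the genotypes by the interaction test (limma, adjusted p under 0.05) for 9 of the 10 guanylate-binding protein genes, as for 25.8% of all genes. The confinement effect in cPLA_2_ KO minus that in cPLA_2_ WT cells, on the log2 scale, was -4.32 for *Gbp5*, -3.12 for *Gbp4*, -2.82 for *Gbp6*, -2.77 for *Gbp3* and -2.72 for *Gbp2*. It was -2.11 for *Gbp9*, -1.29 for *Gbp7* and -0.87 for *Gbp8*. For *Gbp10*, which had 0 reads in the confined cPLA_2_ KO libraries, the fitted difference was -2.32, a value that depends on the pseudocount and is no bound, and its adjusted p was above 0.05 in 5 alternatives (0.0639 to 0.122).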

How the results depend on the processing

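Over the 10 comparisons and 10 members, 1950 values under alternatives were compared with the reported ones, and 1885 kept their sign and their side of the threshold, 35 passed it anew, 11 no longer passed it and 19 changed sign. Each of the 19 belonged to a member that was not called in that comparison. The counts of members called were the same by edgeR and DESeq2 as by limma in every comparison, and with the replicate number as a block they were the same as well (libraries of the same number were not treated as pairs, since in 0 of 15 pairs of conditions did the same numbers all correlate above 0.1). Between the LPS labels the same numbers correlated at -0.608 to -0.059, and other numbers at up to 0.641. The fits treated the LPS libraries as independent, and how they are related was not tested.

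With library totals made equal, 1 member was lower on confinement of cPLA_2_ WT cells (12% of all genes lower), 2 in the libraries labelled LPS cPLA_2_ WT (24.8%) and 1 in those labelled LPS cPLA_2_ KO (24.4%), where 0 were reported. It was 10 instead of 9 members lower on confinement of cPLA_2_ KO cells (5.96%), 5 instead of 7 in confined cells against LPS cPLA_2_ WT (4.93%) and 8 instead of 9 against LPS cPLA_2_ KO (8.38%). That scaling moved the median of all genes from -0.01 to -0.23 on confinement of cPLA_2_ WT cells, from 0.03 to -0.48 and from 0.02 to -0.45 with LPS and from 0.05 to 0.24 in the interaction. For confined cPLA_2_ KO against confined cPLA_2_ WT cells it went from 0.04 to 0.19, and for confined against LPS-treated cells from -0.02 to 0.27 under the cPLA_2_ WT and from 0.02 to 0.47 under the cPLA_2_ KO label. The study's methods set limits of 1.5-fold and a P value of at most 0.05, without naming an adjustment. A figure caption of the study gives a false discovery rate under 0.05 and a log2 fold change beyond 1 instead. With 1.5-fold and an unadjusted p of at most 0.05, 1 member was lower on confinement of cPLA_2_ WT cells (16.2% of all genes). It was also 1 in nonconfined cPLA_2_ KO against cPLA_2_ WT cells (2.23%) and 1 in the libraries labelled LPS cPLA_2_ KO (21.1%), where 0 were reported. The same limits gave 10 instead of 9 on confinement of cPLA_2_ KO cells (11%), 9 instead of 8 negative in the interaction (10.8%) and 10 instead of 8 in confined cPLA_2_ KO against cPLA_2_ WT cells (11.8%). Against LPS cPLA_2_ WT they gave 8 instead of 7 (13.4%) and against LPS cPLA_2_ KO 10 instead of 9 (18.8%). On the adjusted p-value alone 1 was lower on confinement of cPLA_2_ WT cells (in either direction 56.6% of all genes), 4 in nonconfined cPLA_2_ KO against cPLA_2_ WT cells (8.88%), 1 in the libraries labelled LPS cPLA_2_ WT (62.8%) and 1 in those labelled LPS cPLA_2_ KO (63.5%). Leaving out 1 library at a time gave 0 to 1 members lower in nonconfined cPLA_2_ KO against cPLA_2_ WT cells.

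For the members, signs changed near 0. *Gbp10* on confinement of cPLA_2_ WT cells was at -0.0325 with equal totals and at -0.054 to 0.312 leaving out 1 library at a time. In nonconfined cPLA_2_ KO against cPLA_2_ WT cells, leaving out a library gave -0.188 to 0.105 for *Gbp11* and -0.186 to 0.0118 for *Gbp9*. Between the LPS labels it gave -0.0068 to 0.0328 for *Gbp4*, -0.101 to 0.0403 for *Gbp8*, -0.0835 to 0.0203 for *Gbp9* and -0.159 to 0.308 for *Gbp11*. *Gbp11* in confined cPLA_2_ WT cells against the libraries labelled LPS cPLA_2_ WT was at -0.0249 with edgeR, -0.0248 with DESeq2, -0.0471 with the LPS libraries pooled and -0.27 to 0.196 leaving out a library. With equal library totals, *Pla2g4a* was at -0.0618 in the libraries labelled LPS cPLA_2_ WT against nonconfined and at 0.24 in confined cPLA_2_ KO cells against the libraries labelled LPS cPLA_2_ KO. Its reported values there were 0.45 and -0.20. In the latter comparison the adjusted p was under 0.05 with either sign (limma, adjusted p = 0.00568 as reported and 0.00125 with equal totals). The cause was not tested.

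Depth limits *Gbp10*, with at most 15.5 normalized counts outside LPS, and the reads it shares with *Gbp6*. Summing members with proteins at least 90% identical was not run, since no protein sequences were at hand; the sums by coding sequence at least 90% identical, the *Gbp10* bounds without 1 library and the macrophage sum without *Cd14* were chosen after seeing the data.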
